A study of Arabidopsis thaliana with 6 samples.

Results

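The 26S proteasome subunits examined here are 43 genes of 27826 measured, one array row each, identified by its locus. They were taken by identifier and grouped by their place in the complex into 12 genes of the alpha rings and 11 of the beta rings of the 20S core, 10 RPT ATPases and 10 RPN subunits of the lid and base of the 19S particle. Embryos of Arabidopsis thaliana had reached 16 cells, 72 h after hand pollination, and their RNA was measured on 6 arrays. Per the labels, it came on 3 arrays from nuclei pulled down with INTACT through a marker carried by the whole embryo, a method that biotinylates a tagged nuclear protein in chosen cells, and on 3 from whole embryos picked out with a micromanipulator. The labels name no mutant and give all 6 samples the same stage and growth conditions. Each group holds 3 samples, which the labels term biological replicates without saying whether plants or embryos were pooled, and the promoter of the INTACT marker is not given in the sources used here. Isolation method and RNA compartment change together, so they cannot be told apart in this design. Values are RMA intensities, the background-corrected and normalised probe signals, on the log2 scale, and each change is nuclear minus cellular. The comparison asks how the nuclear RNA of an embryo differs from the RNA of its whole cells.

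The proteasome is the protease of cytosol and nucleus that takes apart proteins marked with ubiquitin chains. Its 20S core is a barrel of stacked rings, with alpha subunits forming the gated outer rings and beta subunits the inner rings, where PBA, PBB and PBE carry the active sites. The 19S particle caps the barrel: a ring of RPT ATPases unfolds the substrate and opens the gate, and RPN subunits bind the ubiquitin chain, remove it and hold the particle together. In Arabidopsis many subunits are encoded by pairs of paralogs, and the removal of regulatory proteins by the proteasome underlies auxin signalling and the cell cycle in the embryo.

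Marker genes were checked on the same arrays. The 8 embryo markers, which include the homeobox gene WOX2 and the seed regulator LEC1, had medians of 2.52, 2.83 and 2.23 in nuclear RNA (replicates 1 to 3, as in all such series), against 7.41, 6.66 and 6.09 in cellular RNA. The array medians over all rows lay between 2.46 and 2.68. Of the 8 embryo markers, 5 had nuclear means below the highest of these. LEC1 (2.26, 2.20 and 2.26) was among the 5, and WOX2 (3.11, 2.84 and 2.24) had a nuclear mean of 2.73. ATML1 (6.41, 5.12 and 4.73) and MP (5.76, 5.99 and 5.23) lay well above the array medians on the nuclear arrays. Both still had all nuclear arrays below all cellular arrays. By limma 6 of the 8 fell past the threshold, against 4.66% of all rows called lower. As a set, these markers do not clearly bear out embryo RNA on the nuclear arrays. Nuclear RNA therefore stands below for RNA of the samples labelled as embryo nuclei. Of 14 markers of the seed coat, the maternal tissue around the embryo, 12 had a higher nuclear than cellular mean. So did 17052 of all 27826 rows. By limma 0 of the 14 markers passed (4 higher before adjustment, p under 0.05, as were 10.4% of all rows). Their summed linear intensity was 1827 to 4453 on the nuclear arrays and 342 to 2256 on the cellular arrays, with cellular replicate 3 the highest of its group. No marker was listed at 0. The 6 endosperm markers summed to 23.8 to 58.1 on the nuclear and 22.0 to 30.5 on the cellular arrays. The part of other tissues in the results below was not tested. A smaller share of embryo RNA and a smaller share of proteasome transcripts in nuclear than in whole-cell RNA cannot be told apart.

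All 43 proteasome genes had a lower mean in nuclear than in cellular RNA, against 38.7% of all rows. After cyclic loess between arrays 42 did, against 47.7% of all rows, since the change of PBA1 turned to 0.094 from -0.42. Of the 43 genes, 10 fell and 0 rose past the threshold (limma across all rows, two-sided, Benjamini-Hochberg adjusted p under 0.05), against 4.66% of all rows called lower and 1.17% called higher. The 10 were PAA1 of the alpha ring, PBB1, PBC1 and PBC2 of the beta ring, RPT2a, RPT2b, RPT5A, RPT5B and RPT6A of the ATPase ring, and RPN5A of the lid. For 35 genes all nuclear arrays lay below all cellular arrays, against 14.3% of all rows, and for 8 the groups overlapped. One of the 35, PBB2, was apart by less than 0.01 on the log2 scale, which leaves 34 with a gap. The median change was -1.28, or -1.42 relative to the median of all rows, which was 0.14. Changes ran from -2.23 for AT5G20000 to -0.34 for PBD2, with the middle 50% between -1.56 and -0.94, and 30 of the 43 genes were at least 2-fold lower by their means, against 12.7% of all rows.

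All 6 fits with an array left out held the same number of arrays, 1 fewer than the main fit. The number of calls still differed by the array left out, for reasons not tested. With nuclear replicate 1 left out it was 4, against 2.99% of all rows called lower, and with nuclear replicate 2 left out 2, against 2.2%. With cellular replicate 1 left out it was 1, against 1.6%, and with cellular replicate 2 left out 0, against 0.916% (limma; 23 were lower at an unadjusted p under 0.05, against 10.8% of all rows). Leaving out nuclear replicate 3 gave 10, against 3.38%, and leaving out cellular replicate 3 gave 10, against 6.08%, of which 6 and 9 were among the 10 named. The nuclear mean was below the cellular mean for all 43 genes with any 1 of the 6 arrays left out. For the 35 genes whose groups were apart this was fixed beforehand, so it could have come out otherwise only for the 8 that overlapped. The proteasome genes were mostly brighter than the median of all values, and 42 of the 43 were among the 14499 rows above it. Over those rows 13 of the 42 were called lower against 11.6% of rows, and groups were apart with nuclear below cellular in 25% of rows. The median change was -1.28 for the 42 genes and -0.14 for all the brighter rows, a smaller distance than from the median of all rows.

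**Figure D1:**
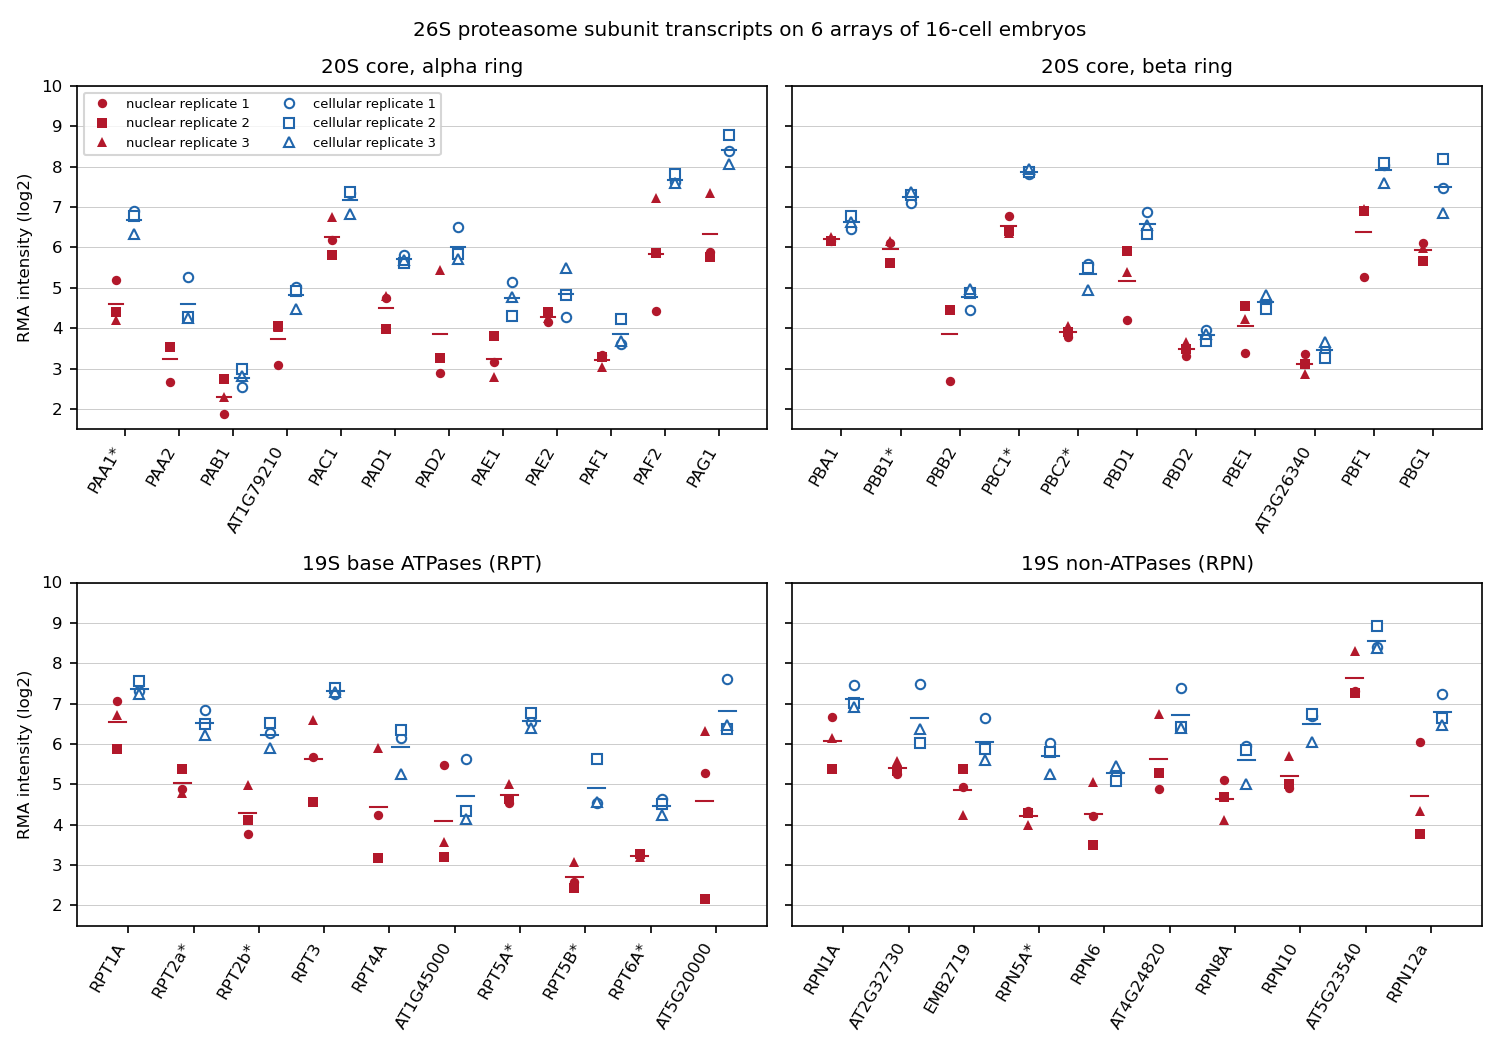
RMA intensity on the log2 scale (vertical axis) of the 43 proteasome genes (horizontal axis, 4 panels by class) on 3 nuclear arrays (filled red) and 3 cellular arrays (open blue); symbols mark the replicate, short lines the group means, and an asterisk a gene past the threshold. Nuclear arrays lie below cellular arrays for 35 genes, and the groups overlap for 8.

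The alpha rings, whose subunits form the gate of the core, had 1 of 12 genes past the threshold, against 4.66% of all rows. Without adjustment 10 of 12 were lower at p under 0.05 by limma, against 13.2% of all rows. In 10 the groups did not overlap, with nuclear below cellular, against 14.3% of all rows and 25% of the brighter rows. PAA1 (AT5G35590_at), an alpha-ring subunit, read 5.19, 4.40 and 4.20 in nuclear RNA, against 6.91, 6.78 and 6.34 in cellular RNA. Its highest nuclear array was 1.15 below its lowest cellular array, and its change was -2.08 (SE 0.32, 4.23-fold lower, limma adjusted p = 0.0202). Its call was lost without nuclear replicate 2, cellular replicate 1 or cellular replicate 2, with adjusted p up to 0.0924.

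The other alpha genes did not pass. PAG1, present as a single gene among the 43, read 5.88, 5.77 and 7.35 in nuclear RNA, against 8.39, 8.78 and 8.06 in cellular RNA. Its groups were apart, with nuclear replicate 3 the nearest to the cellular arrays, and its change of -2.08 had an adjusted p of 0.0575 by limma. PAD2 read 2.90, 3.25 and 5.44 in nuclear RNA, against 6.52, 5.83 and 5.71 in cellular RNA, and PAF2 read 4.43, 5.87 and 7.21 in nuclear RNA, against 7.61, 7.83 and 7.60 in cellular RNA. In both genes nuclear replicate 3 stood nearest the cellular arrays, and both, with PAG1, passed only when that array was left out or, for PAG1, also with array weights or among the brighter rows. PAD1 had a change of -1.19 (adjusted p = 0.0573) and PAE1 of -1.49 (adjusted p = 0.0624), with limma.

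Smaller alpha changes were -1.35 for PAA2, -1.09 for AT1G79210, -0.94 for PAC1, -0.63 for PAF1, -0.58 for PAE2 and -0.48 for PAB1. Groups overlapped in PAE2, whose nuclear arrays spanned only 4.15 to 4.41 while cellular replicate 1 read 4.28, and in PAB1. PAB1 read 1.88, 2.74 and 2.29 in nuclear RNA, against 2.54, 2.99 and 2.81 in cellular RNA, and was the 1 gene of the 43 whose nuclear mean lay within or below the range of array medians, where a fold is compressed.

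The beta rings, which hold the active sites, had 3 of 11 genes past the threshold, against 4.66% of all rows. They held the 3 changes nearest to 0 among the 43, those of PBD2, AT3G26340 and PBA1. PBB1, PBC1 and PBC2 passed in 5, 6 and 5 of 13 alternatives, and 0 beta genes passed after cyclic loess or without cellular replicate 2. PBC2 (AT1G77440_at), a beta-ring subunit without an active site, read 3.79, 3.89 and 4.04 in nuclear RNA, against 5.59, 5.49 and 4.94 in cellular RNA. Its groups were 0.89 apart, and its change was -1.43 (SE 0.24, 2.70-fold lower, limma adjusted p = 0.0247). Its paralog PBC1 (AT1G21720_at) read 6.79, 6.40 and 6.37 in nuclear RNA, against 7.81, 7.88 and 7.94 in cellular RNA. The cellular values of PBC1 had an SD of 0.06, the lowest among the 43 genes, and its change was -1.36 (SE 0.20, 2.56-fold lower, limma adjusted p = 0.0170).

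The active-site subunits named in the gene table were PBA1, PBB1, PBB2 and PBE1. PBB1 (AT3G27430_at), a subunit with trypsin-like activity, read 6.10, 5.63 and 6.17 in nuclear RNA, against 7.09, 7.31 and 7.37 in cellular RNA. Its groups were 0.93 apart and its change was -1.29 (SE 0.22, 2.45-fold lower, limma adjusted p = 0.0268). PBA1, the caspase-like subunit, read 6.17, 6.16 and 6.27 in nuclear RNA, against 6.45, 6.78 and 6.63 in cellular RNA. Its groups did not overlap, but by only 0.18, and the change of -0.42 did not pass (adjusted p = 0.225) and turned to 0.094 after cyclic loess. PBE1, the chymotrypsin-like subunit, had a change of -0.59 with overlapping groups (adjusted p = 0.323). PBB2 read 2.70, 4.45 and 4.45 in nuclear RNA, against 4.45, 4.87 and 4.98 in cellular RNA, so that nuclear replicates 2 and 3 met cellular replicate 1, and its change was -0.90 (adjusted p = 0.328). The 4 active-site genes had a median change of -0.75, and the 6 beta genes of PBC, PBD, PBF and PBG a median of -1.43, of which 1 and 2 passed.

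Among the beta genes that did not pass, PBG1 was nearest to the threshold, with 6.12, 5.68 and 5.99 in nuclear RNA, against 7.48, 8.18 and 6.86 in cellular RNA (change -1.58, limma adjusted p = 0.0591). PBF1, another subunit without an active site, had a change of -1.54 and PBD1 one of -1.43, with nuclear replicate 1 the lowest array in each (5.28 and 4.20). PBD2 changed by -0.34, the least of the 43, and AT3G26340 by -0.35.

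The RPT ATPases, which form the unfolding ring of the 19S base, had 5 of 10 genes past the threshold, against 4.66% of all rows. Their median change was -1.59. RPT2a and RPT2b passed in 5, RPT6A in 6 and RPT5B in 8 of 13 alternatives. RPT5B (AT1G09100_at) read 2.58, 2.43 and 3.09 in nuclear RNA, against 4.54, 5.62 and 4.57 in cellular RNA. Its groups were 1.45 apart, the widest gap of the 43, and its change was -2.21 (SE 0.36, 4.62-fold lower, limma adjusted p = 0.0242), with nuclear values close to the array medians, where a fold is compressed. RPT2b (AT2G20140_at) read 3.78, 4.12 and 4.99 in nuclear RNA, against 6.27, 6.51 and 5.90 in cellular RNA. Its groups were 0.91 apart and its change was -1.93 (SE 0.36, 3.81-fold lower, limma adjusted p = 0.0337).

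RPT5A (AT3G05530_at), the paralog of RPT5B, read 4.55, 4.64 and 5.00 in nuclear RNA, against 6.55, 6.77 and 6.40 in cellular RNA. All its arrays lay close to their group means, and its change of -1.84 had the lowest adjusted p of the 43 (SE 0.21, 3.59-fold lower, limma adjusted p = 0.0101). It passed in 11 of 13 alternatives, the most of any of the 43, and was lost without cellular replicate 2 (adjusted p = 0.0553) and with the replicate number as a block (adjusted p = 0.0512). RPT2a (AT4G29040_at) read 4.89, 5.39 and 4.79 in nuclear RNA, against 6.85, 6.50 and 6.22 in cellular RNA, a change of -1.50 (adjusted p = 0.0287). In Arabidopsis RPT2a is known for its role in the size of meristems and leaves.

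RPT6A (AT5G19990_at) and AT5G20000, also an RPT gene by the grouping, stand next to each other on chromosome 5, with 0 protein-coding genes between them in the TAIR10.1 gene table. RPT6A read 3.23, 3.28 and 3.20 in nuclear RNA, against 4.65, 4.51 and 4.24 in cellular RNA. Its nuclear SD of 0.04 was the lowest of the 43, and its change was -1.23 (adjusted p = 0.0201). AT5G20000 read 5.27, 2.17 and 6.32 in nuclear RNA, against 7.62, 6.38 and 6.46 in cellular RNA. Its nuclear SD of 2.16 was the highest of the 43, with nuclear replicate 2 far below the others, so that the change of -2.23, the largest in size among the 43, did not pass (SE 1.05, adjusted p = 0.260). How much the probes of these neighbours share signal is not given in the sources used here, and 0 of the 43 genes shared all 6 values with another row.

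The remaining ATPases did not pass. RPT3 read 5.69, 4.57 and 6.60 in nuclear RNA, against 7.23, 7.40 and 7.29 in cellular RNA, with a nuclear SD of 1.01, a change of -1.69 and an adjusted p of 0.109. RPT4A had overlapping groups because nuclear replicate 3 read 5.91 while cellular replicate 3 read 5.25 (change -1.48), and AT1G45000 overlapped through nuclear replicate 1, at 5.49 (change -0.62). RPT1A changed by -0.82.

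The RPN subunits bind and cut off ubiquitin chains and scaffold the lid. Of their 10 genes, 1 passed the threshold, against 4.66% of all rows called lower. Before adjustment 9 of 10 were lower at p under 0.05 by limma, against 13.2% of all rows. RPN5A (AT5G09900_at, also named EMB2107 for its embryo-defective mutant), a scaffold subunit of the lid, read 4.35, 4.28 and 4.00 in nuclear RNA, against 6.02, 5.81 and 5.25 in cellular RNA. Its groups were 0.90 apart and its change was -1.48 (SE 0.26, 2.80-fold lower, limma adjusted p = 0.0285). It passed in 4 of 13 alternatives, the fewest of the 10 called genes.

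RPN12a, a lid subunit that in Arabidopsis is known from a mutant with altered cytokinin responses, read 6.04, 3.76 and 4.35 in nuclear RNA, against 7.24, 6.65 and 6.48 in cellular RNA. Nuclear replicate 1 stood apart from the other nuclear arrays, the change of -2.07 did not pass (limma adjusted p = 0.104), and without that array it did (adjusted p = 0.0261). RPN10, a receptor for ubiquitin chains, read 4.91, 5.02 and 5.71 in nuclear RNA, against 6.68, 6.75 and 6.04 in cellular RNA (change -1.28, adjusted p = 0.0707). The other RPN genes had changes between -1.24 for AT2G32730 and -0.93 for AT5G23540. They include RPN1A, in yeast a scaffold of the base that docks ubiquitin-handling proteins (-1.06), EMB2719 (-1.18), RPN6, in yeast a lid subunit that touches the core (-1.01), and RPN8A, in yeast the partner of the deubiquitinating subunit (-0.96). Groups overlapped in AT4G24820 and RPN8A.

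**Figure D2:**
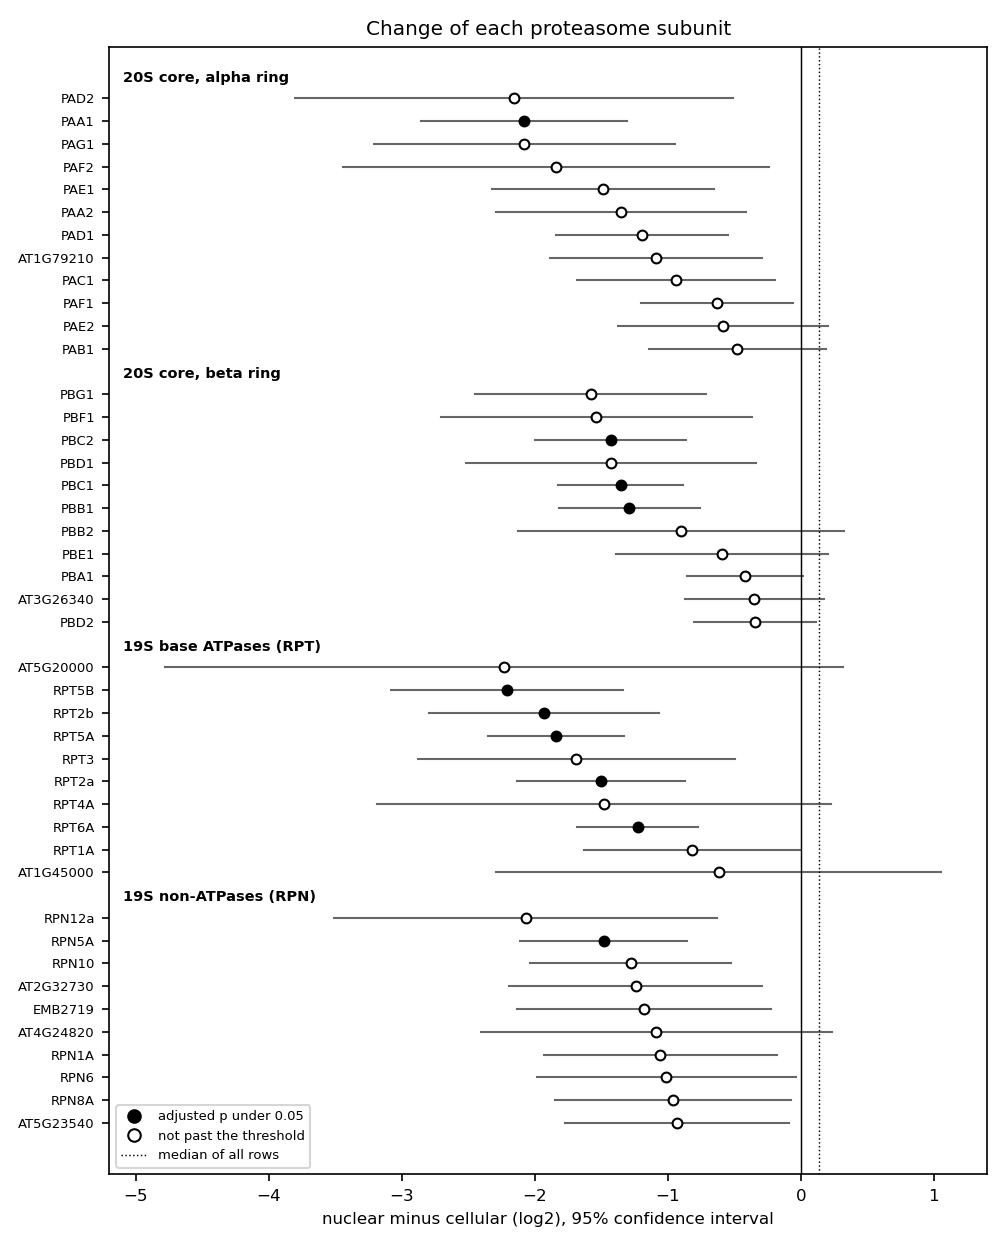
Nuclear minus cellular change of each proteasome gene on the log2 scale (horizontal axis) with the 95% confidence interval of the limma fit, by class; filled points passed the threshold. All points lie left of 0, and the largest change, that of AT5G20000, has the longest interval.

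The classes overlapped in their changes. The medians were -1.27 for alpha, -1.29 for beta, -1.59 for RPT and -1.14 for RPN genes, and the ranges ran from -2.16 to -0.48, from -1.58 to -0.34, from -2.23 to -0.62 and from -2.07 to -0.93. By array, alpha genes had medians of 3.75, 4.02 and 4.23 in nuclear RNA, against 5.54, 5.27 and 5.58 in cellular RNA. Beta genes had medians of 4.20, 5.63 and 5.38 in nuclear RNA, against 6.45, 6.33 and 6.55 in cellular RNA. RPT genes had medians of 4.72, 3.70 and 5.00 in nuclear RNA, against 6.41, 6.44 and 6.06 in cellular RNA. In each of these classes the groups were apart, and nuclear replicate 2 was the lowest nuclear array for RPT genes but the highest for beta genes. RPN genes had medians of 5.02, 5.15 and 5.32 in nuclear RNA, against 6.96, 6.22 and 6.21 in cellular RNA.

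The nuclear arrays varied more than the cellular ones. The SD over the 3 arrays was larger in the nuclear group for 32 of 43 genes, against 60.5% of all rows, with a median SD of 0.51 in the nuclear and 0.31 in the cellular group. Nuclear replicate 3 was the highest nuclear array for 21 genes, and cellular replicate 3 the lowest cellular array for 25. The 43 genes together had medians of 4.74, 4.45 and 4.99 in nuclear RNA, against 6.52, 6.33 and 5.90 in cellular RNA. Among cellular samples the seed coat list had medians of 3.09, 4.62 and 5.59, beside 7.41, 6.66 and 6.09 for the embryo list. Over the 43 genes together, cellular replicate 3 had the lowest proteasome, the lowest embryo and the highest seed coat median of its group. By class this did not hold throughout. Its median was the highest of the cellular arrays for alpha (5.58) and beta genes (6.55), and the lowest for RPT (6.06) and RPN genes (6.21). Without cellular replicate 3 the proteasome median change was -1.37.

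**Figure D3:**
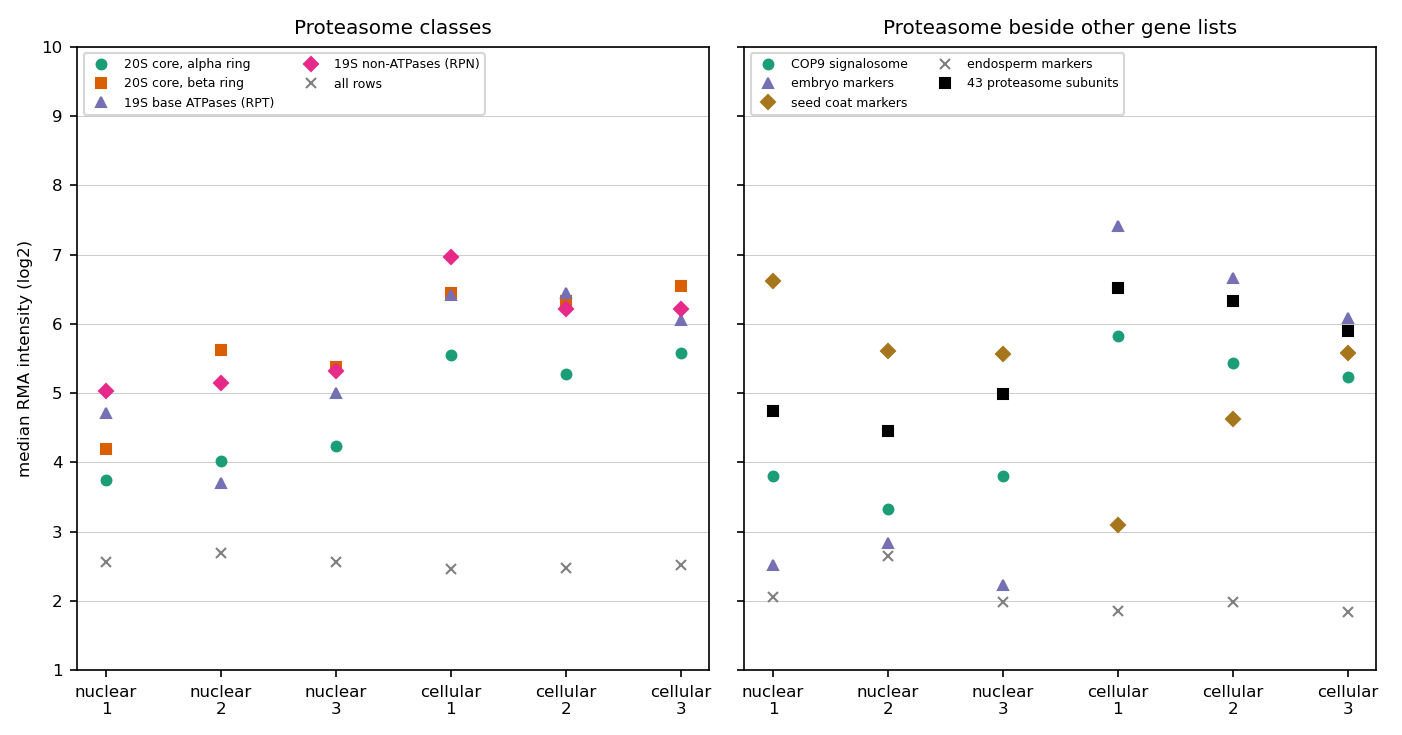
Median RMA intensity (log2, vertical axis) on each array (horizontal axis) for the 4 proteasome classes and all rows (left) and for all 43 proteasome genes beside the COP9 signalosome and the embryo, seed coat and endosperm markers (right). The proteasome medians are 4.45 to 4.99 on the nuclear and 5.90 to 6.52 on the cellular arrays; that of the seed coat on cellular replicate 3 meets the nuclear ones, and on the other cellular arrays it lies below them.

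Paralogs of one subunit were compared within each array, so that a change of the pair as a whole cancels. This was done for the 9 pairs in which both genes carry the subunit's name in the gene table, and each difference was tested over the arrays by an exact two-sided permutation test, whose smallest possible p with 3 against 3 arrays is 0.1. Both genes had a lower nuclear mean in all 9 pairs. Both passed the threshold in 3 pairs (PBC, RPT2 and RPT5), 1 gene passed in 2 pairs (PAA1 and PBB1) and neither in 4. In the 2 pairs with 1 call the paralogs' changes could not be shown to differ: the change of PAA1 minus that of PAA2 was -0.73 (exact p = 0.4), and that of PBB1 minus that of PBB2 was -0.39 (exact p = 0.7).

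The arrays of the groups were apart in 1 pair. PBD1 minus PBD2 was 0.88, 2.42 and 1.73 in nuclear RNA, against 2.93, 2.66 and 2.69 in cellular RNA, a difference in change of -1.08 (exact permutation p = 0.1, adjusted over the 9 pairs p = 0.514). PBD1 read 4.20, 5.90 and 5.38 in nuclear RNA, against 6.88, 6.33 and 6.55 in cellular RNA, while PBD2 read 3.32, 3.48 and 3.65 in nuclear RNA, against 3.95, 3.67 and 3.86 in cellular RNA. The cellular differences of this pair lay close together and the nuclear ones were spread. The largest difference in size was PAF1 minus PAF2, with 1.21, but nuclear replicate 3 lay below all cellular arrays and the other nuclear arrays above them (exact p = 0.4). PAD1 minus PAD2 was 0.97 and PAE1 minus PAE2 was -0.90, with overlapping arrays. The evenest pair was PBC1 and PBC2, with a difference of 0.08 (nuclear SD 0.35, cellular SD 0.41, exact p = 0.8). The RPT2 and RPT5 pairs differed by 0.43 and 0.37 (exact p = 0.4 and 0.3).

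**Figure D4:**
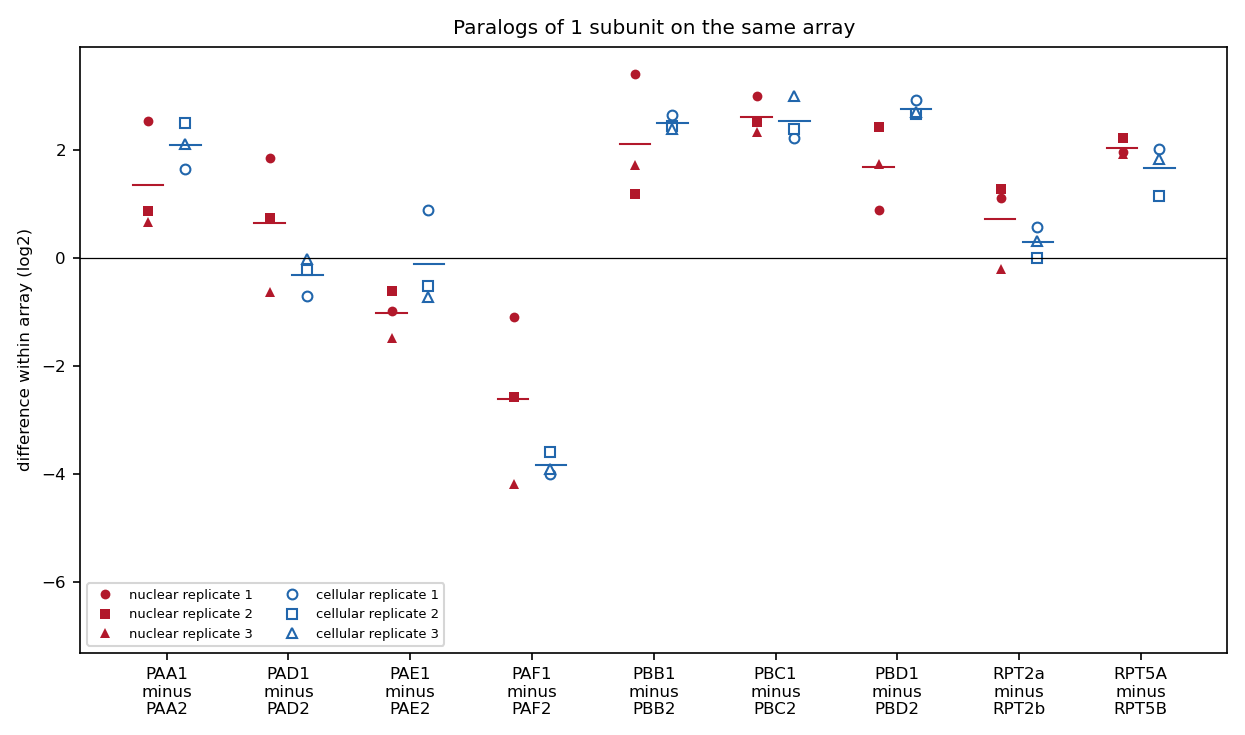
Log2 difference between the paralogs of 9 subunits within each array (vertical axis), for 3 nuclear (filled red) and 3 cellular (open blue) arrays, with group means as short lines. The height of a pair also depends on its probes, so only shifts between the groups can be read; the groups are apart for PBD1 minus PBD2.

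Other genes of the ubiquitin and proteasome system were set beside the subunits. For the counts in these lists, 4.66% of all rows were called lower and 1.17% higher by limma. Before adjustment, at p under 0.05, 13.2% of all rows were lower and 10.4% higher. Of 6 further subunit genes with a proteasome name in the gene table, 2 fell and 0 rose, with a median change of -1.71. With 7 more that carry no such name there, of which none passed (limma; 4 of 7 were lower at an unadjusted p under 0.05), the median of all 13 was -1.14. RPN5B, the paralog of RPN5A, read 2.67, 2.84 and 3.10 in nuclear RNA, against 5.82, 5.65 and 5.08 in cellular RNA, a change of -2.65 (SE 0.26, 6.27-fold lower, limma adjusted p = 0.00765). DSS1(I), in yeast a small acidic lid subunit, changed by -1.85 (adjusted p = 0.0266). Of the 10 genes of the COP9 signalosome, the lid-like complex that takes the NEDD8 tag off cullin ubiquitin ligases, 4 fell and 0 rose, with a median change of -1.55. The largest falls were CSN4 (-2.47, limma adjusted p = 0.0247) and CSN1 (-2.30, adjusted p = 0.0457).

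None of 11 shuttle, deubiquitinase and CDC48 genes passed by limma, and their median change was -0.87. Before adjustment 6 were lower and 1 higher at p under 0.05, against 13.2% and 10.4% of all rows. The lowest p were those of DDI1, known in yeast as a shuttle protein, with a change of -1.47 (adjusted p = 0.0615) and UBP6, a deubiquitinase that in yeast binds the proteasome, with -1.17 (adjusted p = 0.0844). None of 11 ubiquitin and E1 enzyme genes passed either (4 lower and 1 higher before adjustment at the same limit), and their median change was -0.65. UBQ1, which encodes ubiquitin joined to a ribosomal protein, had a change of -1.19 (adjusted p = 0.0788), and UBQ6 of the same kind one of -1.09 (adjusted p = 0.0866). UBQ11, a polyubiquitin gene named here after its values were seen, had the largest change of the list in size, 2.25 (limma adjusted p = 0.0867). It read 9.04, 9.85 and 9.30 in nuclear RNA, against 5.91, 7.24 and 8.29 in cellular RNA. All nuclear arrays lay above all cellular arrays, as in 19% of all rows.

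The transcription factors NAC053 and NAC078, which in Arabidopsis activate proteasome genes when proteasome activity is short, and PA200, a proteasome activator, did not pass (limma; 0 lower and 1 higher at an unadjusted p under 0.05). NAC053 read 5.19, 4.46 and 4.43 in nuclear RNA, against 3.97, 3.63 and 2.93 in cellular RNA (change 1.18, limma adjusted p = 0.114). All its nuclear arrays lay above its cellular arrays, as in 19% of all rows. NAC078 read 6.94, 6.89 and 6.92 in nuclear RNA, against 6.03, 5.96 and 7.01 in cellular RNA, where cellular replicate 3 was the highest of all 6 (change 0.58, adjusted p = 0.313). Of 6 more genes on the list of assembly factors and regulators that carry no proteasome name in the gene table, 1 fell and 0 rose. It was AT1G67250, which read 5.13, 4.00 and 6.18 in nuclear RNA, against 8.66, 8.65 and 7.61 in cellular RNA, a change of -3.20 (SE 0.59, 9.21-fold lower, limma adjusted p = 0.0336) that exceeds those of all 43 subunit genes in size.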

How the data were processed

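The authors deposited 1 table of RMA intensity values for 6 arrays, per the submitters' processing notes. They lie on a linear scale and were taken to log2 here, unfiltered and as normalized by the authors. The RMA version, array type and probe set definitions are not given in the sources used here, and no detection calls were used. RMA as usually run gives all arrays one distribution, which can shift changes between unlike RNA pools. The fit of all 27826 rows used limma (version 3.58.1, R 4.3.3) with lmFit and eBayes and had 4 residual and 2.32 prior degrees of freedom. Precision is limited by the number of arrays, 3 in a group. The test was checked on simulated data.

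Names come from RefSeq's gene table (assembly TAIR10.1), in which 27241 rows were found; 7 of the 43 genes without a name there are given by locus, 4 paralog pairs that include one were not compared, and 7 further subunit genes and 6 assembly or regulator genes without a proteasome name are given apart from the lists. The genes and lists were chosen with earlier results of these data known. By rule, full statistics go to the 2 largest falls past the threshold in a class, and names in other lists to the 2 largest falls or rises, or the 2 lowest p where none passed. Promoter and protein sequences were not used here. Alternatives were cyclic loess, quantile normalization, brighter rows only, a trended robust variance, array weights, matched loci only, a replicate block and each array left out.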

Additional observations from a re-analysis of the deposited data

How the results depend on the processing

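The 10 calls (4.66% of all rows called lower) became 4 after cyclic loess (3.11%), 6 after quantile normalization (3.37%), 3 with a trended robust variance (4.23%), 13 over the brighter rows (11.6%), 12 with array weights (5.29%) and 10 over matched loci only (4.71%). With single arrays left out the count ran from 0 to 10, and none of the 10 genes passed in all 13 alternatives. With the replicate number as a block 1 of 43 remained, PAA1, beside 2.03% of all rows. Same-numbered arrays did not deviate together (correlations of -0.05, -0.06 and -0.01). These values show no shared effect of the number, but cannot tell whether the samples were collected in pairs. The median change of the 43 genes was -0.79 after cyclic loess and -0.90 after quantile normalization, where the median of all rows was 0.02 and 0.04. The alpha median was -0.88 and -0.96 and the RPN median -0.65 and -0.72 under these settings, the beta median -0.77 and -0.90 and the RPT median -1.10 and -1.25; the cause was not tested. The beta and RPT moves were smaller than the wider spread between replicates in those classes (SD 0.55 and 0.50), as were those of all class medians under the other settings. PBA1 reversed to 0.094 after cyclic loess, the only reversal among the 43. The number of paralog pairs with groups apart, 1, stayed 1 after cyclic loess and quantile normalization. With an array left out it ran from 1 to 4. A pair already apart stays apart when an array is removed, so this count could not fall, and fewer arrays separate more easily. Paired by replicate number, as a block, 2 of the 9 pairs differed with one sign in all 3 same-numbered comparisons. With 3 arrays in a group such counts also arise without a difference, and no expected count was set beside them. The planned search of promoters for a motif was not run, for want of a promoter table.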
